A study of Mus musculus with 12 samples.

Results

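A set of 6 keratin genes that mark conjunctival or simple epithelium was followed in mouse corneas injured with benzalkonium chloride (BAK), a preservative and cationic detergent: Krt4, Krt13, Krt19, Krt7, Krt8 and Krt18. They were taken by gene symbol and make up 6 of the 19702 genes in the deposited table. All 6 passed the filter on low counts, with between 470 and 205817 estimated counts in any library. UCPRP corneas received BAK, at 5 µl of 0.2% per eye daily for 14 days, and 5 µl of 20% UCPRP drops 3 times daily for 10 days. UCS corneas received the same BAK and 20% UCS drops at the same volume and schedule. Both preparations are described in the series title only as cord blood-derived, and their abbreviations are not spelled out in the labels. Vehicle corneas received the same BAK and are labelled as having no treatment, and Control corneas had neither injury nor treatment. Each group had 3 libraries, each made from whole corneas of 3 mice (6 corneas) pooled before sequencing. The p-values of the main test rest on the spread between pools within groups, estimated over all 12 libraries together. The labels used here give no strain, age or time of harvest, nor whether drops came during or after BAK.

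Keratins are the intermediate filament proteins of epithelial cells, and each filament is built from heterodimers of a type I (acidic) and a type II (basic or neutral) chain. The expressed pair marks the kind of epithelium: Krt12 with Krt5 in mouse corneal epithelium, Krt4 with Krt13 in non-keratinized stratified mucosa such as conjunctiva, and Krt8 with Krt18 in simple epithelium. Krt7 (type II) and Krt19 (type I) are found in ductal, glandular and conjunctival epithelium, and Krt19, which lacks most of the tail domain, pairs with several type II chains. In corneas whose limbal stem cells are lost, conjunctival epithelium can grow over the surface, and Krt13, Krt19, Krt7 and goblet cell mucins are the markers used to recognise it.

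In the mouse genome (GRCm38.p6, RefSeq annotation) the type II members lie on chromosome 15: Krt7 at chr15:101412403-101427806, Krt4 at chr15:101918535-101924735 and Krt8 at chr15:101996711-102004342. Krt18, although type I, lies on the same chromosome at chr15:102028216-102032026 as the gene next to Krt8. The other type I members lie on chromosome 11, Krt13 at chr11:100117327-100121566 and Krt19 at chr11:100140810-100145926, with Krt15 between them.

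Promoters of the members were set side by side because 4 of the genes moved together and 2 did not. RefSeq promoter sequences of GRCm38.p6 were matched for 4 members and are printed from 250 bases before to 50 bases after the annotated start, in the direction of transcription; Krt4 and Krt19 were not matched. Capitals mark matches, on either strand, to the letters TATAAA of a TATA box, to TGANTCA, the site of AP-1 factors, to CACCC, a core of KLF and Sp sites, or to AACNGGTT, the site of Grainyhead-like factors. The Krt13 window is chr11:100121517-100121816 (minus strand), the Krt7 window chr15:101412153-101412452 (plus strand), the Krt8 window chr15:102004293-102004592 (minus strand) and the Krt18 window chr15:102027966-102028265 (plus strand).
Krt13: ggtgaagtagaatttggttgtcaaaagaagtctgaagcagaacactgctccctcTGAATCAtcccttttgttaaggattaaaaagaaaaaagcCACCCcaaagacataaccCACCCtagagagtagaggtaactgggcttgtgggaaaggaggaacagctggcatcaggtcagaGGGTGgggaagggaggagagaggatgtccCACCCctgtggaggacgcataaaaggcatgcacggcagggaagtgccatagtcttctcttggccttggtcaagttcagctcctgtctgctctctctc
Krt7: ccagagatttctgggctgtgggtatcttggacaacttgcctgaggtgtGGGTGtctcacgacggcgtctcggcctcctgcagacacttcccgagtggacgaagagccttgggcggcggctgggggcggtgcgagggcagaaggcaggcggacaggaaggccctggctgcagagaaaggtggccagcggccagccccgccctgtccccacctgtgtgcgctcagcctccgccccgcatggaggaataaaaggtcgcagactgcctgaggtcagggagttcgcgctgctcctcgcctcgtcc
Krt8: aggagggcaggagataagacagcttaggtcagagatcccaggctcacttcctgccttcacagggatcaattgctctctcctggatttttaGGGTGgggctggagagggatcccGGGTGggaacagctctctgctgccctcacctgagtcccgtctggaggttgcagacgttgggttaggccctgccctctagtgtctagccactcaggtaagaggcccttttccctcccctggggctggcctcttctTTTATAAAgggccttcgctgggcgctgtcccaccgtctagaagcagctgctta
Krt18: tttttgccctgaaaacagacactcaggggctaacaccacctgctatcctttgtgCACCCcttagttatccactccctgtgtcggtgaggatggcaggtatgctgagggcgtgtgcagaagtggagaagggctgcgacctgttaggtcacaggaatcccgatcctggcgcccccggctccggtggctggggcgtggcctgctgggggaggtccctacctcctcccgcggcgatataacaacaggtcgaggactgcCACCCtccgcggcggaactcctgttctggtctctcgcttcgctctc
The Krt13 window held 1 AP-1 match and 4 KLF and Sp matches, and that of Krt7 held 1 KLF and Sp match. The Krt8 window held 2 KLF and Sp matches and 2 overlapping TATA box matches on opposite strands, and that of Krt18 held 2 KLF and Sp matches. Of 15566 promoters of the same length, 10.6% held the TATA box letters, 6.29% the AP-1 letters, 61.8% the KLF and Sp letters and 2.02% the Grainyhead-like letters. These matches are a description of the letters only.

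Library totals ran from 18.55 to 20.44 M estimated counts, and levels are given in CPM, the counts of a gene per 1 M counts of its library, after TMM scaling, with factors from 0.825 to 1.067. The labelled tissue was checked by its defining keratin: Krt12, the cornea-specific type I keratin, had 186, 7.55 and 3.29 CPM in the UCPRP libraries, 8.68 to 40.3 CPM in UCS and 7.18 to 23.9 CPM in Vehicle, against 15897 to 32863 CPM in Control. All 6 genes of the corneal epithelium list passed the test described below as lower in Vehicle than in Control, where 6.92% of all genes did. Retina transcripts were present in all 12 libraries, with a summed level of 7 genes between 2346 and 14151 CPM and overlapping between the groups. The 4 libraries with low Dbp and high Arntl, genes of the circadian clock, were Control 3, Vehicle 1, Vehicle 2 and UCS 1 (14.7 to 25.9 CPM of Dbp, against 139 to 280 CPM in the other 8). Time of day is not labelled, and it cannot be told apart here from other differences between these libraries.

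BAK injury was compared first. Of the 6 keratins, 4 were higher and 0 were lower in Vehicle than in Control at an adjusted p under 0.05 (edgeR quasi-likelihood test, Benjamini-Hochberg over 16124 genes), against 16.5% of all genes tested called in either direction, 9.58% higher and 6.92% lower. The 4 were Krt4, Krt13, Krt7 and Krt19, the mucosal and ductal members, and the Vehicle and Control libraries of each did not overlap, as in 30.6% of all genes tested. The 9 injured libraries together did not overlap with Control in these 4 genes either, as in 16.3% of all genes tested. Krt8 and Krt18, the pair of simple epithelium, did not pass the test. In whole-cornea RNA, more cells of a type and more RNA per cell cannot be told apart, and this holds for each level below.

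Krt4, the type II chain of non-keratinized stratified mucosa, had 6553, 6909 and 5375 CPM in UCPRP, 6838, 6218 and 5355 CPM in UCS and 6482, 4444 and 6803 CPM in Vehicle, against 610.0, 1601 and 1378 CPM in Control. Every injured library lay above every Control library, and the lowest injured library, Vehicle 2, was above the highest Control library, Control 2. The log2 fold change of Vehicle over Control was 2.30 (SE 0.33, 95% interval 1.58 to 3.03, edgeR adjusted p = 0.00079), a 4.94-fold higher level.

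Krt13, the type I partner of Krt4 in mucosa, had 10215, 10033 and 7704 CPM in UCPRP, 10810, 9942 and 8473 CPM in UCS and 10620, 7285 and 9912 CPM in Vehicle, against 1911, 4125 and 2927 CPM in Control. Its injured and Control libraries did not overlap. Its log2 fold change in Vehicle over Control was 1.63 (SE 0.28, 95% interval 1.01 to 2.26, edgeR adjusted p = 0.0024), a 3.10-fold higher level.

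Krt7, a type II chain of ductal and glandular epithelium, had 1107, 1079 and 744 CPM in UCPRP, 1082, 1013 and 1007 CPM in UCS and 894, 628 and 935 CPM in Vehicle, against 92.3, 263 and 218 CPM in Control. The injured libraries again lay apart from Control, whose 3 pools differed among themselves more, in proportion, than those of any injured group. The log2 fold change of Vehicle over Control was 2.10 (SE 0.33, 95% interval 1.37 to 2.83, edgeR adjusted p = 0.0014), a 4.28-fold higher level.

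Krt19, the short type I chain of ductal and conjunctival epithelium, had 1096, 1232 and 794 CPM in UCPRP, 1123, 1186 and 865 CPM in UCS and 802, 620 and 1021 CPM in Vehicle, against 157, 482 and 412 CPM in Control. The lowest Vehicle library, at 620 CPM, stood 1.29-fold above the highest Control library, the narrowest gap among the 4 genes. Its log2 fold change in Vehicle over Control was 1.22 (SE 0.36, 95% interval 0.43 to 2.01, edgeR adjusted p = 0.039), a 2.33-fold higher level. This call held without Control 2, Vehicle 2, UCS 3 or UCPRP 3 (edgeR adjusted p = 0.0313, 0.0429, 0.0484 and 0.0454) and was lost without each of the other 8 libraries: leaving out Control 1, Control 3, Vehicle 1, Vehicle 3, UCS 1, UCS 2, UCPRP 1 or UCPRP 2 gave edgeR adjusted p-values of 0.0539, 0.0616, 0.0829, 0.118, 0.0547, 0.0532, 0.0538 and 0.0522 in that order, with the difference still positive each time. A fit of the 2 groups alone gave 0.105 and a clock covariate 0.0613.

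**Figure D1:**
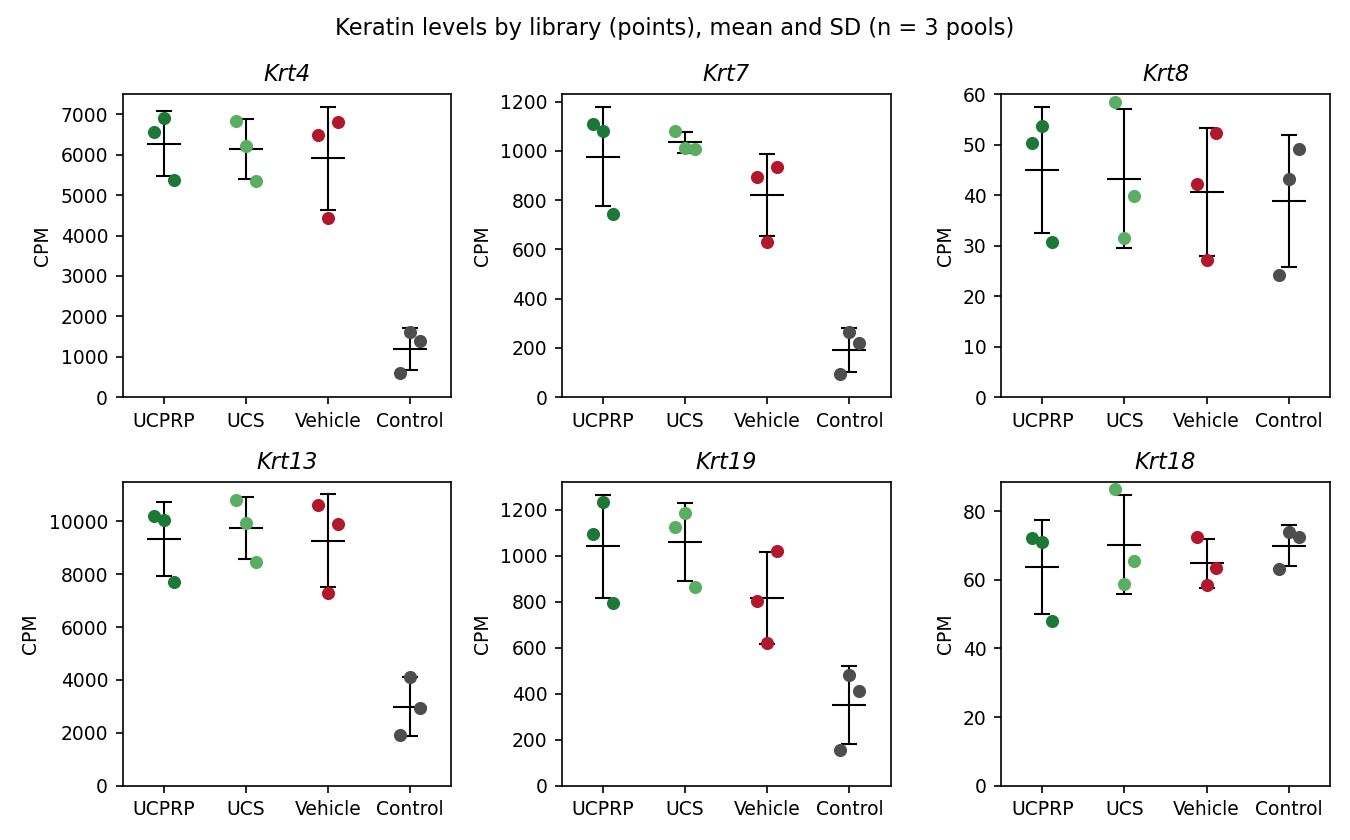
Level of each of the 6 keratins in CPM (linear axes from 0) by group; points are the 12 libraries, dashes and bars the mean ± SD of 3 pools. Krt4, Krt13, Krt7 and Krt19 lay higher in the 9 injured libraries than in the 3 Control libraries, while Krt8 and Krt18 overlapped among the 4 groups.

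Krt8, the type II chain of simple epithelium, had 50.4, 53.7 and 30.7 CPM in UCPRP, 58.4, 31.6 and 39.8 CPM in UCS and 42.3, 27.1 and 52.4 CPM in Vehicle, against 24.2, 43.2 and 49.2 CPM in Control. The groups overlapped, and the log2 fold change of Vehicle over Control was 0.06 (95% interval -0.67 to 0.79, edgeR adjusted p = 0.937), which leaves room for a change in either direction. Of its 50-base stretches, 26.9% also occur in transcripts of another gene, the pseudogene Krt8-ps, so its counts are uncertain.

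Krt18, the type I partner of Krt8, had 72.0, 71.0 and 48.1 CPM in UCPRP, 86.5, 58.7 and 65.4 CPM in UCS and 72.5, 58.4 and 63.3 CPM in Vehicle, against 63.0, 74.0 and 72.5 CPM in Control. The groups overlapped here too. The log2 fold change of Vehicle over Control was -0.11 (95% interval -0.50 to 0.28, edgeR adjusted p = 0.765), the narrowest interval of the 6 genes. For Krt18, a fold above 1.21 in Vehicle over Control lay outside that interval.

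Both simple epithelium keratins are also known in corneal endothelium and retinal pigment epithelium, whose markers were therefore read beside them. The 3 corneal endothelium genes summed to 554 to 696 CPM in UCPRP, 523 to 1017 CPM in UCS and 495 to 731 CPM in Vehicle, against 655 to 758 CPM in Control. The 5 retinal pigment epithelium genes summed to 269 to 553, 246 to 527 and 414 to 605 CPM in UCPRP, UCS and Vehicle, against 591 to 725 CPM in Control. The sums in UCPRP and UCS thus lay below Control with no overlap. Singly, 28.2% of all genes tested did not overlap with Control in UCPRP, and 28.9% in UCS. None of the genes in these lists was at 0 or passed the test in Vehicle, UCS or UCPRP against Control. Their part in the Krt8 and Krt18 levels was not tested.

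The treated injured groups were also set against Control. In UCS against Control, 4 of the 6 keratins were higher and 0 lower, where 10.9% of all genes were called, 6.4% higher and 4.47% lower; in UCPRP against Control the counts were again 4 and 0, where 10.4% were called, 5.3% higher and 5.07% lower. The genes were Krt4, Krt13, Krt7 and Krt19 in both. These comparisons share the Control libraries with the comparison of Vehicle, so they are no separate evidence of a rise. Krt4 was 5.25-fold higher in UCPRP (log2 2.39, SE 0.33, edgeR adjusted p = 0.0011) and 5.13-fold higher in UCS (log2 2.36, SE 0.33, edgeR adjusted p = 0.0011). Krt7 was 5.11-fold higher in UCPRP (log2 2.35, SE 0.34, edgeR adjusted p = 0.0013) and 5.41-fold higher in UCS (log2 2.44, SE 0.34, edgeR adjusted p = 0.0010), the largest fold of any member in these comparisons. Krt13 was 3.12-fold higher in UCPRP and 3.26-fold higher in UCS, and Krt19 was 2.97-fold and 3.02-fold higher in these groups, with edgeR adjusted p-values of 0.0183 and 0.0153 for Krt19. The Krt19 call in UCS was lost without UCS 2 (edgeR adjusted p = 0.0509), that in UCPRP without UCPRP 1 (0.0504) or UCPRP 2 (0.0653), and each in a fit of its 2 groups alone (0.0690 for UCPRP and 0.0570 for UCS). Krt8 and Krt18 passed in neither, at log2 0.21 and -0.13 in UCPRP and 0.15 and 0.01 in UCS.

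**Figure D2:**
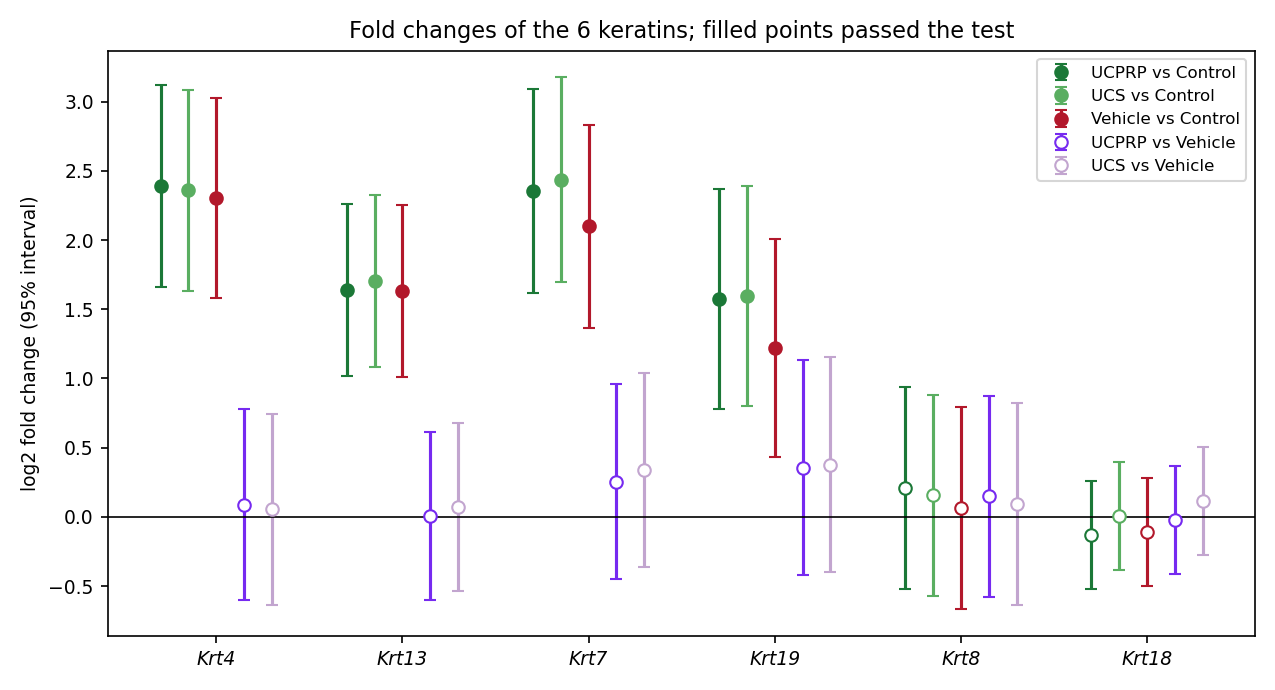
Log2 fold change of each keratin with its 95% interval in 5 comparisons, 3 of them over Control and 2 of treated injured groups over Vehicle; filled points passed the edgeR test at an adjusted p under 0.05. Krt4, Krt13, Krt7 and Krt19 are filled in the comparisons with Control, and no keratin is filled over Vehicle.

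Whether drops changed these keratins in injured corneas was read from UCPRP and UCS against Vehicle. None of the 6 passed the test in UCPRP against Vehicle, UCS against Vehicle or UCPRP against UCS, where 0% of all genes were called by edgeR (1572, 782 and 393 genes had an unadjusted p under 0.05). DESeq2 called 145, 13 and 0 genes in these comparisons and limma-voom 0 in each, and neither tool called a member. Vehicle 1 and Vehicle 2 were low in Dbp and no UCPRP library was, so drops and Dbp level are partly confounded between UCPRP and Vehicle. With a clock covariate, 742 genes had an unadjusted edgeR p under 0.05 there, and 0 members were called. In UCPRP over Vehicle the log2 differences were 0.09 for Krt4 (95% interval -0.60 to 0.78), 0.01 for Krt13 (-0.60 to 0.61), 0.25 for Krt7 (-0.45 to 0.96) and 0.35 for Krt19 (-0.42 to 1.13). In UCS over Vehicle they were 0.05 for Krt4 (-0.64 to 0.75), 0.07 for Krt13 (-0.54 to 0.68), 0.34 for Krt7 (-0.37 to 1.04) and 0.38 for Krt19 (-0.40 to 1.15). None of these intervals reached, in either direction, the difference of 2.30 that Krt4 showed between Vehicle and Control. The Krt19 limits also lay within its own difference of 1.22 between Vehicle and Control, in either direction, but the upper limits of 1.13 and 1.15 came close. That difference was itself uncertain, with a 95% interval of 0.43 to 2.01. The intervals over Vehicle are wide enough to hold a moderate change in either direction. Krt8 and Krt18 differed by 0.15 and -0.02 in UCPRP over Vehicle and by 0.09 and 0.12 in UCS over Vehicle. Krt7 was the only member whose groups did not overlap here, at 1007 to 1082 CPM in UCS and 628 to 935 CPM in Vehicle, as in 9.46% of all genes tested, and it was not called (edgeR adjusted p = 0.9998). Between UCPRP and Vehicle all 6 overlapped, where 13.8% of all genes did not. Between the 2 preparations, UCPRP over UCS, all 6 log2 differences lay between -0.14 and 0.05.

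Per length, the order of the keratins was the same in the injured groups. In CPM per kilobase of exon, Krt13 averaged 5633 ± 847 in UCPRP, 5890 ± 714 in UCS and 5606 ± 1063 in Vehicle, against 1806 ± 670 in Control (SD, n = 3 each). Krt4 followed at 2944 ± 376, 2877 ± 349 and 2771 ± 600 in UCPRP, UCS and Vehicle, against 561 ± 244 in Control. Next came Krt19 and then Krt7, at 517 ± 127 and 200.1 ± 40.7 in Vehicle and 222 ± 109 and 46.7 ± 21.6 in Control. Krt7 and Krt18 changed places in this order with the length used: the Krt18 level of 48.6 per exonic kilobase in Control was within the spread of Krt7. Per kilobase of coding sequence Krt7 stood at 139 in Control and 597 in Vehicle. The annotated Krt7 transcript, at 4094 exonic bases against 1371 coding bases, makes its per-length level the least certain. Krt8 was the lowest in all groups, at 23.0 in UCPRP, 22.1 in UCS, 20.7 in Vehicle and 19.9 in Control per kilobase of exon.

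The make-up of the keratin counts differed between injured and uninjured corneas far more than their total did. All 53 keratin genes in the table took 4.59% ± 0.626 of library counts in UCPRP, 4.65% ± 0.126 in UCS and 4.68% ± 0.518 in Vehicle, against 5.47% ± 1.25 in Control (SD, n = 3 each). Of those keratin counts, the 6 members made up 39.0% ± 0.779 in UCPRP, 39.3% ± 2.98 in UCS and 37.0% ± 2.75 in Vehicle, against 8.30% ± 2.48 in Control. The injured libraries ran from 34.1% to 42.3%, the Control libraries from 6.06% to 10.97%. Krt13 alone made up 20.5%, 21.2% and 20.3% of keratin counts in UCPRP, UCS and Vehicle, against 5.11% in Control, and Krt4 made up 13.8%, 13.3% and 12.9%, against 2.06%. Krt12 moved the other way, at 0.133%, 0.0485% and 0.0291% of keratin counts in the injured groups, against 37.9% in Control. Krt8 and Krt18 together stayed a trace, at 0.237%, 0.247% and 0.231%, against 0.196%. Shares of a fixed total are tied to each other, so a lower share of Krt12 goes with higher shares of the rest.

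**Figure D3:**
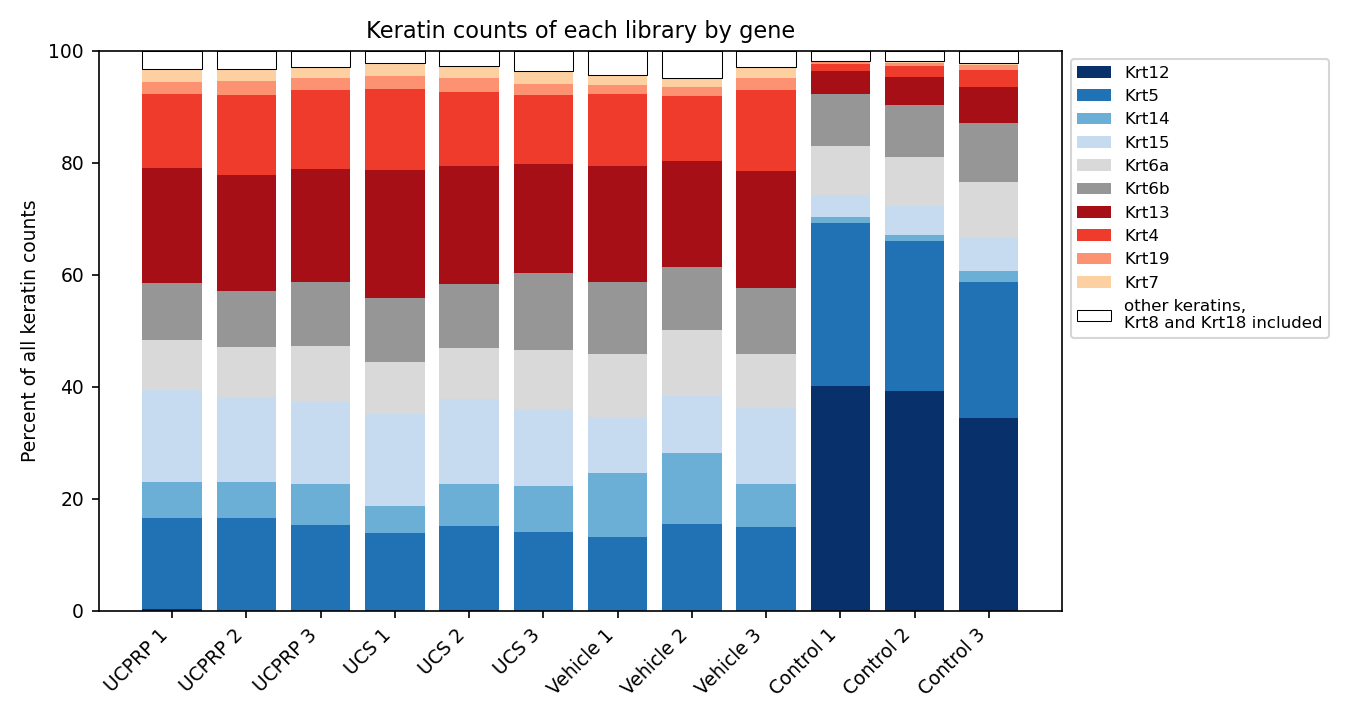
Share of all keratin counts (percent) taken by each keratin gene in each of the 12 libraries, as stacked bars. The red and orange segments (Krt13, Krt4, Krt19 and Krt7) fill 33.9% to 42.0% of the injured bars and 5.88% to 10.7% of the Control bars, where Krt12 (darkest blue) fills 34.5% to 40.1%.

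The type II chain stood higher against its type I counterpart after injury in both sets of genes that rose. The Krt4 to Krt13 ratio of counts per exonic length was 0.524 ± 0.0234 in UCPRP, 0.489 ± 0.00307 in UCS and 0.493 ± 0.0341 in Vehicle, against 0.305 ± 0.0589 in Control (SD, n = 3 each). The lowest injured library had 0.473 and the highest Control library 0.365, so the groups did not overlap. The Krt7 to Krt19 ratio was 0.362 ± 0.0261, 0.383 ± 0.0604 and 0.390 ± 0.0384 in UCPRP, UCS and Vehicle, against 0.214 ± 0.0115 in Control, again with no overlap (0.329 at the lowest in injured libraries and 0.226 at the highest in Control). The Krt8 to Krt18 ratio overlapped, at 0.513 ± 0.0433, 0.446 ± 0.0503 and 0.459 ± 0.136, against 0.403 ± 0.110. The ratios were not tested; the choice of length multiplies each by a constant and leaves its order among libraries as it is.

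**Figure D4:**
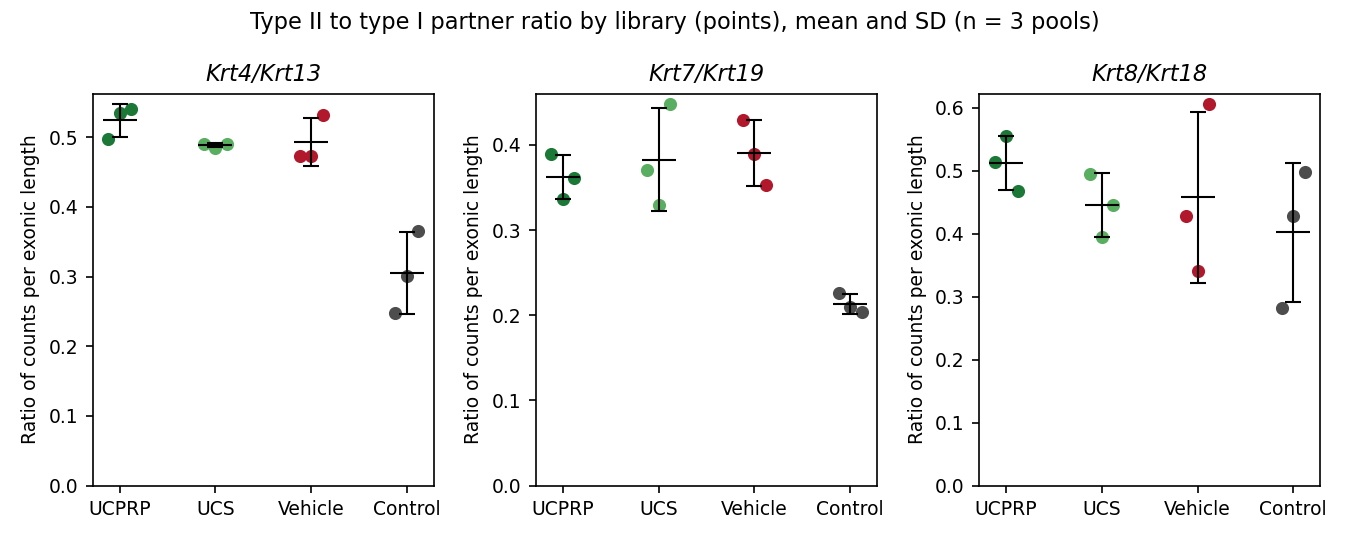
Ratio of type II to type I keratin, as counts per exonic length (axes from 0), for Krt4 to Krt13, Krt7 to Krt19 and Krt8 to Krt18; points are libraries, dashes and bars the mean ± SD of 3 pools. Injured and Control libraries are apart in the first and second panels and overlap in the third.

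Among the 47 other keratin genes, 23 were tested, and 13 of them (56.5%) were called in Vehicle against Control, 7 higher and 6 lower. Over all genes 16.5% were called. The median log2 change of the 23 was 0.07, against -0.00 over all genes. The keratins that rose were Krt10, Krt14, Krt16, Krt17, Krt23, Krt76 and Krt87, and those that fell were Krt12, Krt5, Krt75, Krt78, Krt80 and Krt90. Krt14, the type I chain of basal stratified epithelium, was higher (log2 2.68, edgeR adjusted p = 0.00016), and Krt5, its type II partner, fell by 1.26 on the log2 scale (edgeR adjusted p = 0.0067). Krt6a and Krt6b, type II keratins of wounded and mucosal epithelium and near-identical copies whose counts are uncertain, had log2 values of -0.12 and -0.05 and did not pass. In UCS against Control 7 of the 23 were higher and 3 lower, in UCPRP against Control 6 and 3, and edgeR called none between the injured groups. The shares over all genes were 6.4% higher and 4.47% lower in UCS, and 5.3% and 5.07% in UCPRP.

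Keratins that neighbour the members in the gene clusters rose in some cases and fell in others. Krt76, next to Krt4 and the type II keratin of palate, had 7.36, 5.72 and 5.05 CPM in UCPRP, 6.22, 5.58 and 3.94 CPM in UCS and 10.3, 4.15 and 5.53 CPM in Vehicle, against 0.775, 1.78 and 0.873 CPM in Control. It was higher in Vehicle by 2.55 on the log2 scale (edgeR adjusted p = 0.0014). Krt15, between Krt13 and Krt19, had a log2 value of 0.78 in Vehicle over Control (edgeR adjusted p = 0.118) and passed in UCPRP (1.24, adjusted p = 0.0279) and UCS (1.22, adjusted p = 0.0278). Krt80, beside Krt7, and Krt78, beside Krt8, fell by 0.81 and 1.25 (edgeR adjusted p = 0.0383 and 0.0216). Krt87, on the other side of Krt7, was higher by 3.81 (edgeR adjusted p = 0.0032), at a mean of 0.41 CPM over the 12 libraries.

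**Figure D5:**
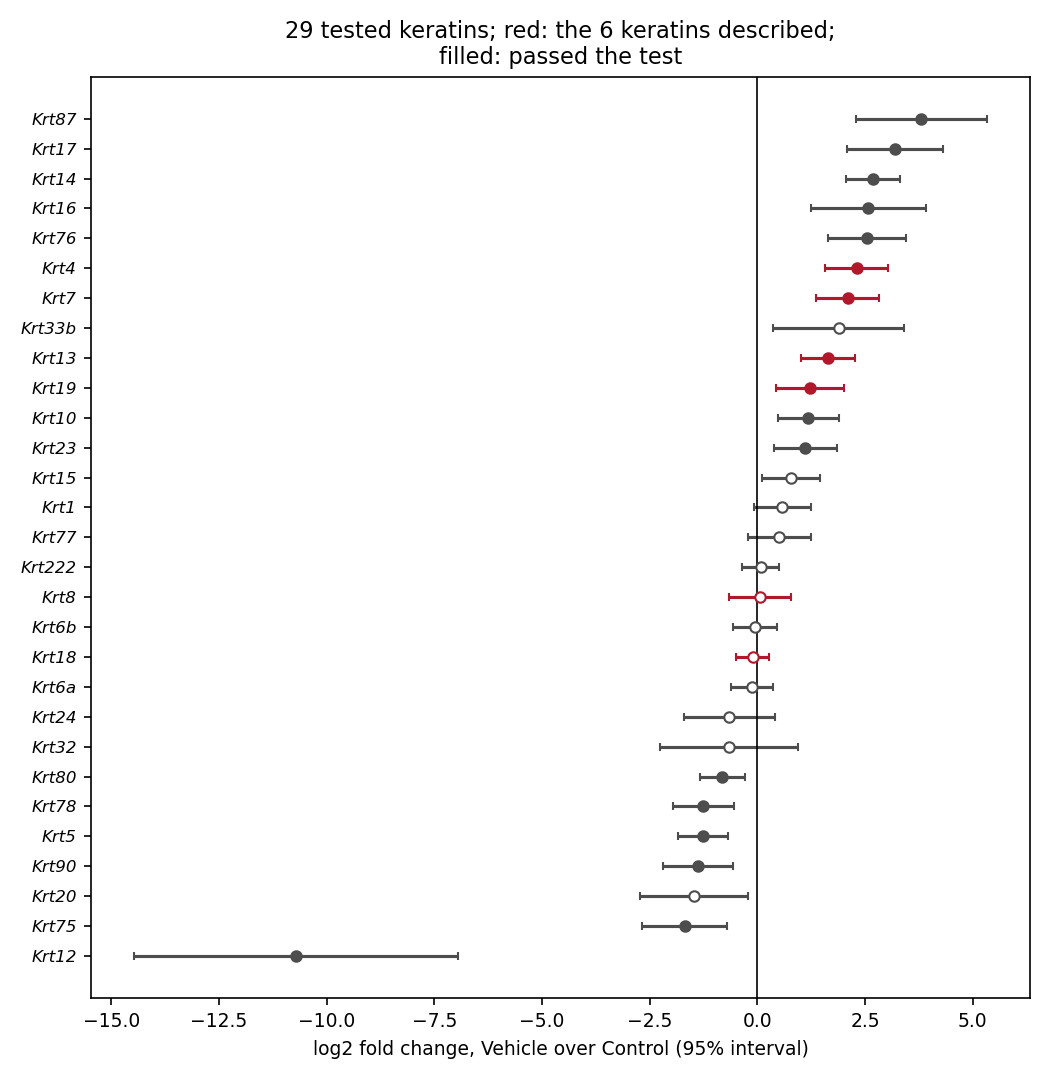
Log2 fold change of Vehicle over Control with its 95% interval for the 29 keratin genes tested, sorted; the 6 keratins described are red, and filled points passed the edgeR test. Krt4, Krt7, Krt13 and Krt19 lie at 1.22 to 2.30, Krt8 and Krt18 at 0.06 and -0.11, and Krt12 at -10.71.

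Genes for proteins that anchor or organise keratin filaments were read beside Krt4 and Krt13, and none passed as higher in Vehicle than in Control. Of 14 filament linkers (desmosomal plaque proteins, plakins and filament organisers), 0 were higher and 5 lower in Vehicle than in Control, with a median log2 change of -0.34. Over all genes tested, 9.58% were higher and 6.92% lower. Envoplakin (Evpl) fell by 1.09, plakophilin 3 (Pkp3) by 1.07 and plakoglobin (Jup) by 1.02 on the log2 scale (edgeR adjusted p = 0.0121, 0.0033 and 0.0228). In UCPRP against Control 0 were higher and 4 lower, and in UCS against Control 1 was higher and 2 lower. The shares over all genes were 5.3% higher and 5.07% lower in UCPRP, and 6.4% and 4.47% in UCS.

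Other genes of stratified mucosa did not move as a block. Of 12 listed, 11 were tested, and 3 were higher and 2 lower in Vehicle than in Control (median log2 0.41). Over all genes tested, 9.58% were higher and 6.92% lower. Sprr2a3, a cornified envelope precursor whose close paralogs make its count uncertain, had 18.1, 33.8 and 21.5 CPM in UCPRP, 8.35, 21.9 and 61.5 CPM in UCS and 106, 66.2 and 36.0 CPM in Vehicle, against 0.404, 1.88 and 2.45 CPM in Control (log2 5.46 in Vehicle over Control, edgeR adjusted p = 0.0010). Sprr1a, another envelope precursor, was higher by 2.10 (edgeR adjusted p = 0.0441). Mal, an apical sorting protein of mucosal epithelium, fell by 1.24 (edgeR adjusted p = 0.0080). Of 12 genes of simple and glandular epithelium, 2 were higher and 4 lower (median log2 -0.48), beside the same 9.58% and 6.92% of all genes. The tight junction gene Cldn8 (0.99) and the adhesion gene Epcam (0.71) were higher and Cldn4, another claudin, fell by 0.67 (edgeR adjusted p = 0.0186, 0.0380 and 0.0407).

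Goblet cell genes, the markers of a conjunctival cell type, rose together with the 4 keratins. All 10 tested genes of that list were higher in Vehicle than in Control (median log2 3.88), against 9.58% of all genes. None was at 0 in all libraries of a group. Their summed level was 434 to 617 CPM in UCPRP, 553 to 995 CPM in UCS and 983 to 1450 CPM in Vehicle, against 41.1 to 61.2 CPM in Control. The goblet sums of UCPRP and Vehicle did not overlap, and singly 13.8% of all genes tested did not overlap there either. In that comparison 0 of the 10 goblet genes were called. The UCPRP and Vehicle levels of all 6 keratins overlapped. For Muc5ac, the gel-forming mucin of conjunctival goblet cells, the log2 difference of UCPRP over Vehicle was -1.35 (95% interval -2.22 to -0.47, edgeR adjusted p = 0.359), not a call. The part of goblet cells in the keratin levels was not tested.

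Markers of other tissues that a dissected cornea could carry were read in the same way. In Vehicle against Control no gene passed among 7 retina, 6 lens, 6 skeletal muscle and 2 epidermis genes tested. In the same comparison 1 of 3 meibomian gland, 5 of 5 macrophage and 2 of 4 vessel endothelium genes were higher. Over all genes tested, 9.58% were higher and 6.92% lower. In the keratocyte list 1 of 5 was higher and 1 lower. The 6 lens genes were very uneven between libraries. They summed to 192 to 20086 CPM in UCPRP, 49.0 to 9284 CPM in UCS and 194 to 6547 CPM in Vehicle, against 353 to 10020 CPM in Control. For the lens gene Cryaa the 95% interval of Vehicle over Control, -6.63 to 4.09 on the log2 scale, leaves room for a large change in either direction. The muscle genes had a median log2 change of 2.51 with sums of 141 to 999 CPM in Vehicle, against 5.57 to 258 CPM in Control. Meibomian genes summed to 15.3 to 21.5 CPM over the 9 injured libraries, against 6.48 to 9.57 CPM in Control, with Awat1 at 0 in every injured library. The epidermis genes summed to at most 1.56 CPM in any library. The macrophage genes summed to 555 to 723 CPM in Vehicle, against 132 to 196 CPM in Control. The part of these cells in the keratin levels was not tested.

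Within each group, the library lowest in Krt4 was also the lowest in Krt13, Krt7 and Krt19: UCPRP 3, UCS 3, Vehicle 2 and Control 1. These 4 libraries also had the highest summed retina level of their group. With the retina level as a covariate, the log2 changes in Vehicle over Control were 2.33 for Krt4, 1.66 for Krt13, 2.13 for Krt7 and 1.26 for Krt19, and all 4 passed (edgeR adjusted p = 0.00022, 0.00028, 0.00054 and 0.0256). Krt8 and Krt18 were lowest in the same libraries except in UCS, where UCS 2 was lowest.

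Libraries of like Dbp level were compared separately, a choice made after the data had been seen. Among the high-Dbp libraries (1 Vehicle and 2 Control) the log2 changes were 2.62 for Krt4, 1.72 for Krt13, 2.40 for Krt7 and 1.68 for Krt19 (edgeR adjusted p = 0.0284, 0.0929, 0.0421 and 0.161). Among the low-Dbp libraries (2 Vehicle and 1 Control) they were 1.99, 1.61, 1.80 and 0.79 in the same order (edgeR adjusted p = 0.121, 0.168, 0.171 and 0.684). A lone library in these fits is assumed to vary like the others. These 4 values were positive in both sets, each of which has a group of 1 library, and Krt8 was 0.64 in the high-Dbp and -0.50 in the low-Dbp libraries, neither of them a call.

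The profiles of the 4 genes over the 12 libraries were close but not identical. As the root mean square difference of log2 CPM centred on each gene, Krt4 and Krt7 were the most alike of all pairs of members (0.133), followed by Krt13 and Krt19 (0.247). Krt8 and Krt18 differed by 0.291, Krt4 and Krt13 by 0.344, and Krt4 and Krt18 by 1.14. The filament partners Krt4 and Krt13 were thus less alike in profile than Krt4 and Krt7, which are both type II. Outside the 6 members, over 12586 genes whose mean level reached 5 CPM, those nearest to Krt4 were Barx2 (0.208), Ocm (0.261) and Fads2b (0.268). Of the genes that are no members, nearest to Krt13 were Ccdc3 (0.148), Gipc2 (0.179) and Anxa3 (0.186), to Krt19 Ripply3 (0.195), Ocm (0.244) and Adh6a (0.251), and to Krt7 Cbr2 (0.235), Barx2 (0.238) and Fads2b (0.243). Barx2 and Fads2b thus stood near both Krt4 and Krt7, though Krt4 and Krt7 were nearer to each other, and Krt13 was nearer to Krt19 than Adh6a was. Nearest to Krt8 were Crip2 (0.199), Aldh1a2 (0.234) and Gsta3 (0.234), and nearest to Krt18, which ran from 48.1 CPM in UCPRP 3 to 86.5 CPM in UCS 1, were Ankrd44 (0.111), Mrps16 (0.115) and Pcca (0.120). All genes were measured in the same 12 libraries, and the difference between injured and Control libraries enters every distance. The distances are thus no evidence apart from the fold changes, and are a description with no test.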

How the data were processed

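Whole corneas were sequenced in 12 libraries; RNeasy extraction and TruSeq Stranded Total RNA libraries are named per the labels' protocols. HISAT and GRCm38 are named in the submitters' processing notes, while how reads were counted, against which annotation and with which strand setting, was not given in sources used here. The values the authors deposited are estimated counts per gene, unscaled for depth, of which 64.9% were exactly whole; how reads that fit several genes were treated is unknown, so near-identical genes are uncertain. Values were rounded, and filterByExpr (minimum count 10) kept 16124 genes. After TMM scaling, edgeR 4.0.16 in R 4.3.3 ran its robust quasi-likelihood test with 1 term per group over 12 libraries. P-values were adjusted by Benjamini-Hochberg, and genes under 0.05 were called. The SE is implied by the F statistic. The step was tested on simulated counts. Each library was counted as a replicate, since each was made from a pool of 3 mice. Libraries of a group differed beyond counting error (chi-square per degree of freedom of 18.3 or more), which does not by itself show that they are independent. The common biological coefficient of variation was 0.227.

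The members and all gene lists were chosen with earlier results of these data known. Named were all members, Krt12 and the 6 other keratins of highest mean CPM, per list up to 3 called genes of largest fold whose mean reached 5 CPM, and per member the 3 nearest profiles. Krt76, Krt78, Muc5ac and the other called keratins were named after their values were seen. By Entrez identifier, 19644 of 19702 genes matched RefSeq (GRCm38.p6), the source of coordinates and promoters. Lengths and shared 50-base stretches come from GENCODE vM21. Alternatives were RLE factors, library totals, no filter, DESeq2 1.42.0, limma-voom (limma 3.58.1), 2 groups only, a replicate block, clock and retina covariates and leaving out each library.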

Additional observations from a re-analysis of the deposited data

How the results depend on the processing

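Krt4, Krt13 and Krt7 passed the test in each comparison with Control under all 21 alternatives other than the split by Dbp, with log2 changes in Vehicle over Control of 1.99 to 2.57, 1.39 to 1.93 and 1.76 to 2.39; Krt19 passed in 18 of them in UCPRP, in 19 in UCS and in 10 in Vehicle. The number of members called was 3 to 4 over Control, and 0 between injured groups, with each library left out in turn. Among the high-Dbp libraries 3 members were called in UCPRP and 2 in UCS over Control. The split by Dbp was a fit of all 12 libraries with 1 term per group and Dbp level, so fewer libraries stand behind each term. The other comparisons with Control in this split have a group of 1 library, and their member counts are not given. No UCPRP library is among the low-Dbp libraries. Replicate numbers do not pair the samples: 7 of 18 same-numbered pairs had correlated deviations over 0.1 (-0.581 to 0.494), and 3 of 12 libraries correlated best with their own number. With a replicate block, 3 members were called in Vehicle over Control (Krt19 lost, log2 1.28, edgeR adjusted p = 0.0557), and 2300 of all genes against 2661 without it. Counts of all genes moved by over 1.5 times in UCPRP over Vehicle (0; 145 with DESeq2, 195 without Vehicle 3), UCS over Vehicle (0; 13 and 37), UCPRP over Control (1671; 1009 without UCPRP 2, 998 without UCPRP 3), UCS over Control (1753; 1089 without UCS 3, 29 among low-Dbp libraries) and Vehicle over Control (2661; 719 and 692 among high-Dbp and low-Dbp libraries); the cause was not tested. With library totals only, the median of all genes in Vehicle over Control moved to 0.11 and the split to 2020 higher and 868 lower, against 1545 and 1116.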
